A study of Homo sapiens with 18 samples.

Results

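The 48 genes described here belong to the Fanconi anaemia pathway, homologous recombination or the DNA damage checkpoint, and they were followed in 2 human cancer cell lines. They were chosen by gene symbol from a list of these pathways, and all 48 symbols were found among the 58395 genes of the deposited tables. HeyA8 is an ovarian cancer line and PC3 is a prostate cancer line; both carried the label wild type and no other genetic change. Cells of each line were transfected with RNAiMax and a short RNA named sNT8, sG5C or sCAG, at 10 nM, and total RNA was taken after 48 h. In the library titles the sG5C groups carry the name Mxy and the others NT8 and CAG; the treatment labels were followed here. This gave 6 groups of 3 libraries, lettered A to C, and sNT8 served as the reference in each line. Nothing in the labels says whether the 3 libraries of a group came from separate cultures, so the p-values measure the spread between libraries, which may be technical. The series title concerns DISE, in which short RNAs kill cells by silencing survival genes.

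As background, the Fanconi pathway repairs crosslinks between DNA strands: a core ubiquitin ligase marks the FANCD2 and FANCI pair, which then recruits nucleases and recombination factors. Homologous recombination repairs double-strand breaks by resecting the ends, starting strand exchange through BRCA1, PALB2 and BRCA2, and resolving the joint molecules that form. ATM and ATR sense breaks and stalled forks and pass the signal to CHEK2 and CHEK1, and many of these genes are transcribed mainly in the S and G2 phases of the cell cycle through promoter elements read by E2F and DREAM complexes.

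Promoters of 43 of the 48 genes were matched in RefSeq (GRCh38.p14, 250 bases before to 50 bases after the start of each gene). FANCI, RAD54B, DNA2, RMI2 and NBN are named only. Cell cycle elements of 3 kinds were searched on both strands: E2F as TTTGGCGC, TTTGCCGC, TTTCGCGC or TTTCCCGC, CHR as TTTGAA or TTCGAA, and the CCAAT box as CCAAT, and no motif lies within another. The E2F letters were in 5 of the 43 promoters (11.6%) and in 3.31% of all 35116 promoters in the table. FANCA, FANCD2, XRCC2, RMI1 and TOPBP1 held them. The CHR letters were in 7 of 43 (16.3%) and in 16.4% of all promoters, and those 7 were UBE2T, USP1, BRIP1, GEN1, POLQ, MDC1 and H2AFX. A CCAAT box was in 20 of 43 (46.5%) and in 34.6% of all promoters. Of the 43 genes, 31 were at least 2-fold lower with sCAG in HeyA8 and 12 were not. The E2F letters were in 5 of the 31 (16.1%) and in 0 of the 12, and the CHR letters in 7 of the 31 (22.6%) and in 0 of the 12. The CCAAT box was in 14 of the 31 (45.2%) and in 6 of the 12. The 12 genes are few, and whether the motifs differ between these groups was not tested. The 5 genes with the lowest log2 fold change there were BRIP1, BLM, POLQ, FANCD2 and BRCA2, of which BLM held 3 CCAAT boxes alone and BRCA2 no motif. The promoters of 5 genes are shown: 4 of those lowest, with and without motifs, and ATM, which did not pass the test. Capitals mark the motif letters on either strand.
BRIP1: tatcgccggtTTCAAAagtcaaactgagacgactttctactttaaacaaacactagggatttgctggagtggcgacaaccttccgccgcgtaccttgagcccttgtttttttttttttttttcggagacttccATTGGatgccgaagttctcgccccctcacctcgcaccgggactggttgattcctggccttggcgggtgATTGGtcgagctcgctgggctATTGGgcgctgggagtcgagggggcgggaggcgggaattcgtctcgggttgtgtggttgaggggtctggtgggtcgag
POLQ: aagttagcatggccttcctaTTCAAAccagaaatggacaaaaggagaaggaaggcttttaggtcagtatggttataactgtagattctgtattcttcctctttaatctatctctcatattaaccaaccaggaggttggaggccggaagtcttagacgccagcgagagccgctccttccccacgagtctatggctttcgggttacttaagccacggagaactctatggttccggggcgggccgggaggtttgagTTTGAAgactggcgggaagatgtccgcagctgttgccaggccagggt
FANCD2: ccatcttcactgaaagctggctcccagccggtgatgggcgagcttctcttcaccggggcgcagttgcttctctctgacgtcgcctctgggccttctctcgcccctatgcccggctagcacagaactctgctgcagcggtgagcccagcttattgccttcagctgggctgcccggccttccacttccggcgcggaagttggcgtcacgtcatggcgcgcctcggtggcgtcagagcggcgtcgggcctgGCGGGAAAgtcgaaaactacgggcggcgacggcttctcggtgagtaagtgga
BRCA2: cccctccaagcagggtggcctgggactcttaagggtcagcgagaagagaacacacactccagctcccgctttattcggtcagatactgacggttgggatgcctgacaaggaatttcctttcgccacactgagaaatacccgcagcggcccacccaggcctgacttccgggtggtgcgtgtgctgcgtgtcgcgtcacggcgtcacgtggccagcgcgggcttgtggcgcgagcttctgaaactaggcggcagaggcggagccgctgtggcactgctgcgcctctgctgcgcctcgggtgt
ATM: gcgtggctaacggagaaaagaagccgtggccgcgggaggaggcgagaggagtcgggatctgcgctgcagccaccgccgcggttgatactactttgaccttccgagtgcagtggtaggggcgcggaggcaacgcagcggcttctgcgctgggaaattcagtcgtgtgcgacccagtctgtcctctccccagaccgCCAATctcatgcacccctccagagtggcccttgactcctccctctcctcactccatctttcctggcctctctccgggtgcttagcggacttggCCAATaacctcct

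BRIP1 is shown for chr17:61863479-61863778 on the minus strand, with 1 CHR and 3 CCAAT matches. POLQ is shown for chr3:121545939-121546238 on the minus strand, with 2 CHR matches. FANCD2 is shown for chr3:10026187-10026486 on the plus strand, with 1 E2F match. BRCA2 is shown for chr13:32315258-32315557 on the plus strand, with no match. ATM is shown for chr11:108223075-108223374 on the plus strand, with 2 CCAAT matches. These matches describe letters in a window and say nothing of binding. CTG, the reverse complement of CAG, was looked for as an unbroken run in the GENCODE 29 transcripts. No transcript of the 48 genes held a run of 5 or more CTG units, against 1.29% of 19873 protein-coding genes, and ATRIP and XRCC3 held 4 units, a length that 3.50% of protein-coding genes reach.

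Each library held 31232377 to 41384838 gene reads, and replicates differed by more than counting noise (chi-square per degree of freedom 3.29 to 7.26 over genes). No library was set aside. Of the ovarian markers, PAX8 averaged 352 CPM (gene reads scaled by library total) in HeyA8 sNT8, while MUC16 was at 0 there and EMX2 and FOLR1 averaged at most 0.02. In PC3 sNT8 the prostate marker HOXB13 averaged 247 CPM, but KLK3, KLK2 and FOLH1 were at 0. Of the epithelial markers in HeyA8 sNT8, the keratins KRT8 and KRT18 averaged 679 and 274 CPM, EPCAM and KRT19 averaged 0.73 and 0.33, and the cadherin CDH1 was at 0. Of the leukocyte markers, PTPRC averaged 0.02 in each sNT8 group, while LYZ was at 0 in HeyA8 sNT8 and 1.43 in PC3 sNT8. Of the endothelial markers, CDH5 averaged 69.8 in HeyA8 sNT8, and KDR and PECAM1 averaged 75.3 and 30.5 in PC3 sNT8. VWF averaged at most 0.76 in either. The fibroblast marker COL1A1 averaged 23.2 in HeyA8 sNT8 and 13.4 in PC3 sNT8, and DCN at most 0.04. Tests below were made on reads divided by the authors' size factors (normalized reads), which were set separately in each deposited table, so the sNT8 values of a line differ by a constant per library between its 2 tables. Of these 48 genes, all passed the filter on low values in every comparison.

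Levels per length are given as RPKM, reads divided by annotated exon length and by the library's gene reads, computed from reads recovered from the tables. In HeyA8 with sNT8, H2AFX, the histone variant phosphorylated at breaks, was highest at 62.8 ± 4.40 RPKM (SD, n = 3). NBN, a subunit of the MRE11 complex, followed at 26.9 ± 0.47, USP1, which removes ubiquitin from FANCD2, at 21.1 ± 0.50, and TOPBP1, an activator of ATR, at 17.3 ± 0.46. The lowest levels were 1.44 ± 0.08 for RAD54B, 0.80 ± 0.08 for RAD50 and 0.50 ± 0.13 for RAD51D. In PC3 with sNT8 the order began with H2AFX at 79.1 ± 4.26, USP1 at 29.3 ± 1.12 and the resection nuclease DNA2 at 21.9 ± 0.92. NBN (17.5 ± 0.53) and TOPBP1 (17 ± 0.63) came next and differed by less than their SD. RAD50 was lowest at 0.37 ± 0.03. RAD50 shares 79.7% of its exon bases with AC116366.3 and RAD54B shares 59.1% with FSBP on the same strand, so reads there could be split or dropped by the authors' counting. Values for these genes, and for ATRIP (27.9% shared with TREX1), are uncertain for that reason. No source used here gives the strand setting of the counting, and 76.7% of the XRCC3 exon bases, 28.7% of those of TP53BP1, 25.1% of those of RAD54L and 23.6% of those of FANCA lie opposite another gene's exons.

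**Figure D1:**
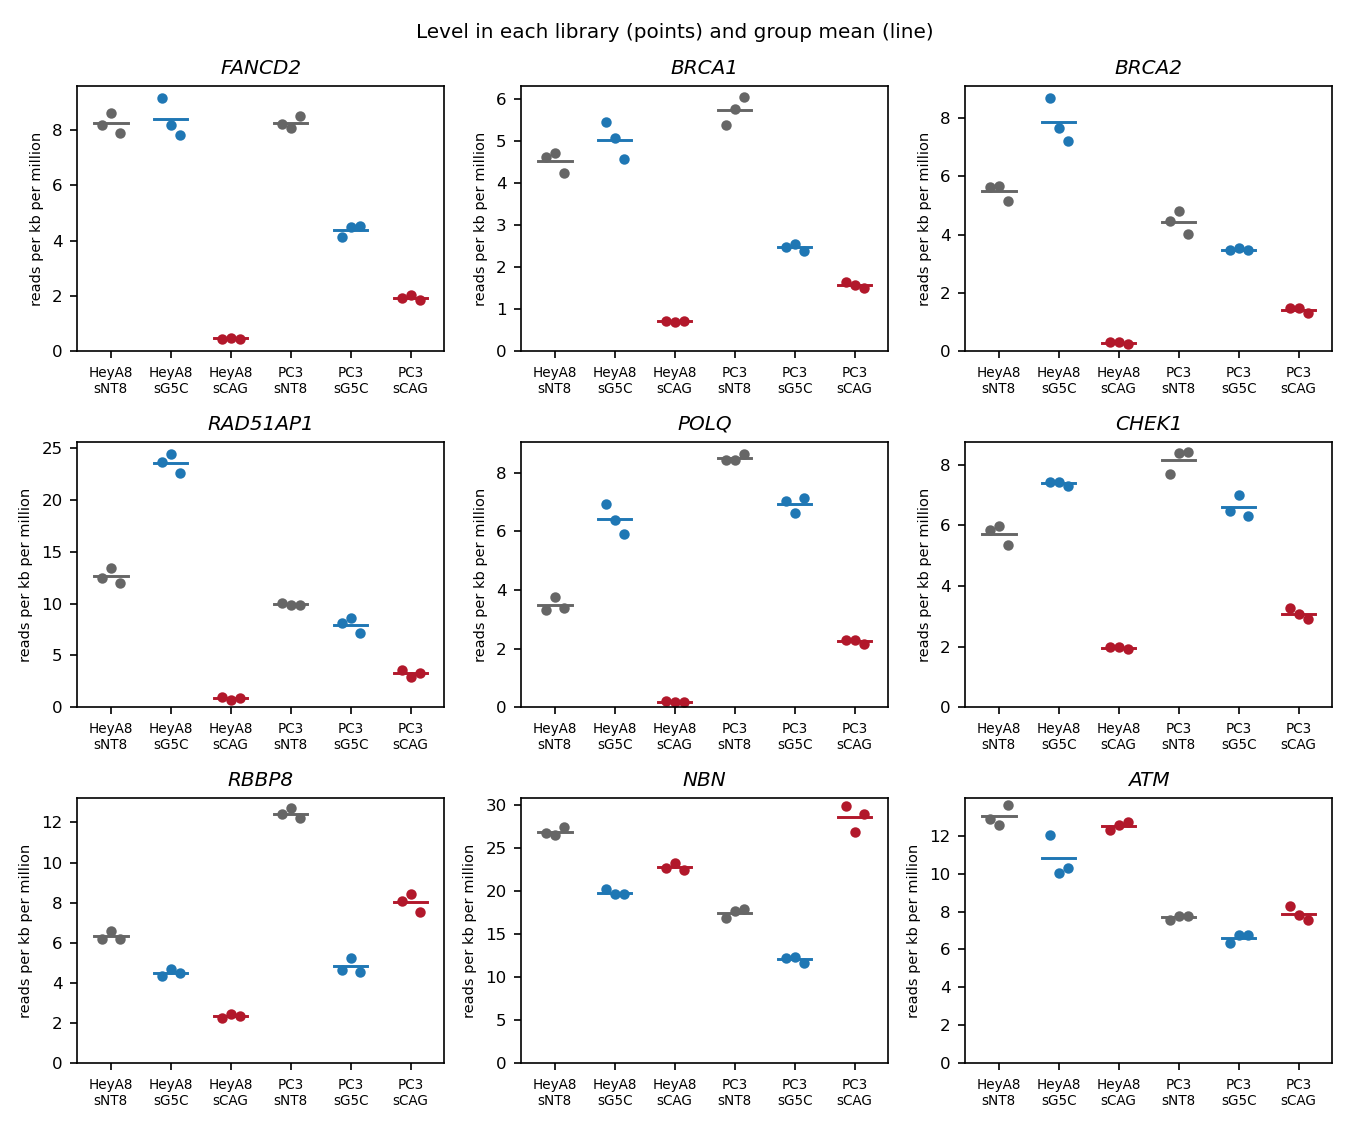
Levels of 9 genes in RPKM (vertical axis, from 0) in each of the 18 libraries; points are libraries A to C, lines are group means of n = 3. FANCD2 averaged 8.25 in HeyA8 sNT8 and 0.46 with sCAG, while NBN and ATM stayed above 10 in all HeyA8 groups.

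The sNT8 groups of the lines were compared with edgeR's quasi-likelihood test over all 18 libraries, in which 38.5% of 27105 genes were higher and 32.7% lower in PC3. Of the 48 genes, 26 were higher in PC3, 17 were lower and 5 did not pass; with library totals as the scaling the split was 29 to 11. At least 2-fold higher were 9 (23.4% of all genes) and at least 2-fold lower 4 (17.9%). DNA2 was higher by 2.68 ± 0.07 on the log2 scale (SE; adjusted p = 1.7e-32), XRCC2, which acts in recombination, by 2.58 ± 0.08 and FANCB, a core subunit, by 2.40 ± 0.10. FANCA was higher by 1.68 ± 0.08 and the helicase BRIP1 by 1.60 ± 0.08. FANCL, the ligase subunit of the core, had a log2 difference of -1.63 ± 0.10 (adjusted p = 1.9e-19), and RAD50 of -1.38 ± 0.14. Both apex kinases were lower in PC3, ATR with -1.11 ± 0.05 and ATM with -1.01 ± 0.05, and NBN had -0.87 ± 0.05. Line and library preparation cannot be told apart in this comparison.

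With sCAG in HeyA8, nearly the whole set was lower than with sNT8. By limma's moderated test with Benjamini-Hochberg adjustment over 21980 genes at 0.05, 45 of the 48 genes were lower, none was higher, and ATM, MUS81 and TP53BP1 did not pass (edgeR and DESeq2 also called 45 lower and 0 higher; at an unadjusted p under 0.05 no gene of the set was higher). Over all genes tested, 30% were lower and 29.3% higher. At least 2-fold lower were 35 of the 48, against 10.5% of all genes. The median log2 fold change of the set was -1.83, and that of all genes was 0.01. In 45 genes every sCAG library lay below every sNT8 library, as did 32.2% of all genes tested. Fewer cells in a cycle phase and less RNA per cell cannot be told apart in these bulk libraries. All 24 cell cycle markers (for example TOP2A, -7.17, and MKI67, -6.75) were also lower, with a median of -3.49; their part in the change of the repair genes was not tested.

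In the Fanconi core all 9 genes fell, 8 of them at least 2-fold. UBE2T, the ubiquitin-conjugating enzyme of the pathway, fell by 3.83 on the log2 scale and FANCA by 3.48; FANCF, an adaptor subunit, had the smallest change at -0.37 ± 0.09. FANCF read 382, 355 and 394 normalized reads with sNT8 in libraries A to C and 308, 284 and 281 with sCAG (adjusted p = 0.0014). The groups of FANCF did not overlap, yet they were close beside those of its substrate pair. FANCD2, the substrate marked by the core, read 2464, 2512 and 2265 with sNT8 and 142.2, 152 and 148 with sCAG. That is a log2 fold change of -4.02 ± 0.08 (16.2-fold lower, adjusted p = 9.9e-25). FANCI, its partner, read 1361, 1570.2 and 1322 against 166, 131 and 136, a change of -3.29 ± 0.10 (adjusted p = 3.6e-20). Every sCAG library was far below every sNT8 library in both. USP1, which reverses the mark, fell by 1.95.

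The BRCA1 group fell as well, all 5 genes, but not to the same degree. BRIP1, the helicase that binds BRCA1, had the lowest log2 fold change of the whole set: 662, 701 and 639.9 normalized reads with sNT8 against 41.2, 20.2 and 41.7 (-4.31 ± 0.23, 19.8-fold lower, adjusted p = 4.8e-09). Library B was the lowest of the 3, and without it the other libraries still lay far under sNT8. BRCA2, which acts at resected ends, read 2482, 2412 and 2166 against 142.2, 157 and 119 (-4.08 ± 0.09, adjusted p = 5.8e-22). BRCA1 itself read 1518, 1502 and 1329 against 254, 243 and 249 (-2.54 ± 0.08, adjusted p = 3.4e-20), and its partner BARD1 changed by -2.38 ± 0.08. PALB2, which bridges BRCA1 and BRCA2, read 848, 885 and 830.0 against 647, 685 and 658 (-0.36 ± 0.07, adjusted p = 5e-05). Within this group the falls ran from 1.29-fold for PALB2 to 19.8-fold for BRIP1.

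All 8 strand-exchange cofactors (RAD51B, RAD51C, RAD51D, XRCC2, XRCC3, RAD51AP1, RAD54L and RAD54B) were lower, 4 of them at least 2-fold. RAD51AP1, which helps joint molecules form, read 1142, 1194 and 1051 against 97.9, 72.4 and 85.6 (-3.72 ± 0.11, adjusted p = 1.4e-20). XRCC2 changed by -3.58 ± 0.16, RAD54L, a motor protein of recombination, by -2.94 ± 0.13, and RAD54B by -2.56 ± 0.16. RAD51D, RAD51C and XRCC3 were between -0.90 and -0.57. RAD51B read 586, 566 and 605 against 402, 451 and 375 (-0.52 ± 0.09, adjusted p = 7.8e-06), the smallest change in this role.

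All 5 end resection genes passed, over a wide span. EXO1, a long-range nuclease, changed by -3.37 ± 0.14, DNA2 by -1.87 ± 0.11 and RBBP8 (CtIP), which starts resection, by -1.31 ± 0.07. NBN read 5903, 5663 and 5768 against 5268, 5429.7 and 5278, a log2 fold change of -0.12 ± 0.04 (adjusted p = 0.021); this call was lost without sCAG library A (adjusted p = 0.076) or C (adjusted p = 0.058). Of the 8 joint molecule genes 7 were lower. BLM, the helicase of the dissolution complex, read 542, 569 and 484 against 35.04, 28.8 and 24.2 (-4.15 ± 0.15, 17.7-fold lower, adjusted p = 2.1e-18). Its partners TOP3A (-0.68 ± 0.06), RMI1 (-1.84 ± 0.10) and RMI2 (-1.13 ± 0.12) changed less. The nuclease subunit EME1 changed by -2.68 ± 0.16, while its catalytic partner MUS81 did not pass (0.03 ± 0.07, adjusted p = 0.75). POLQ, the polymerase of microhomology-mediated end joining, read 1120.0, 1232 and 1083 against 73.2, 60.7 and 60.4 (-4.13 ± 0.11, adjusted p = 1.3e-21).

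Among the 9 sensing and checkpoint genes 7 were lower, and ATM and TP53BP1 did not pass. ATM read 11061, 10473 and 11164 with sNT8 and 11167, 11419.7 and 11621 with sCAG (0.07 ± 0.04, adjusted p = 0.17). ATR read 6956, 6881 and 6685 against 5048, 5017 and 5143 (-0.43 ± 0.04, adjusted p = 1.4e-09). CHEK1, the kinase below ATR, read 1378, 1361 and 1198 against 496, 491 and 478 (-1.42 ± 0.07, adjusted p = 1.5e-15). CHEK2, the kinase below ATM, changed by -1.92 ± 0.10 and H2AFX by -3.14 ± 0.06. TOPBP1, ATRIP (the partner of ATR) and MDC1 (the reader of phosphorylated H2AFX protein) lay between -1.46 and -1.30. TP53BP1, which counters resection, gave 0.01 ± 0.05 (adjusted p = 0.85), and was called lower with library totals as the scaling (-0.11, adjusted p = 0.047).

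**Figure D2:**
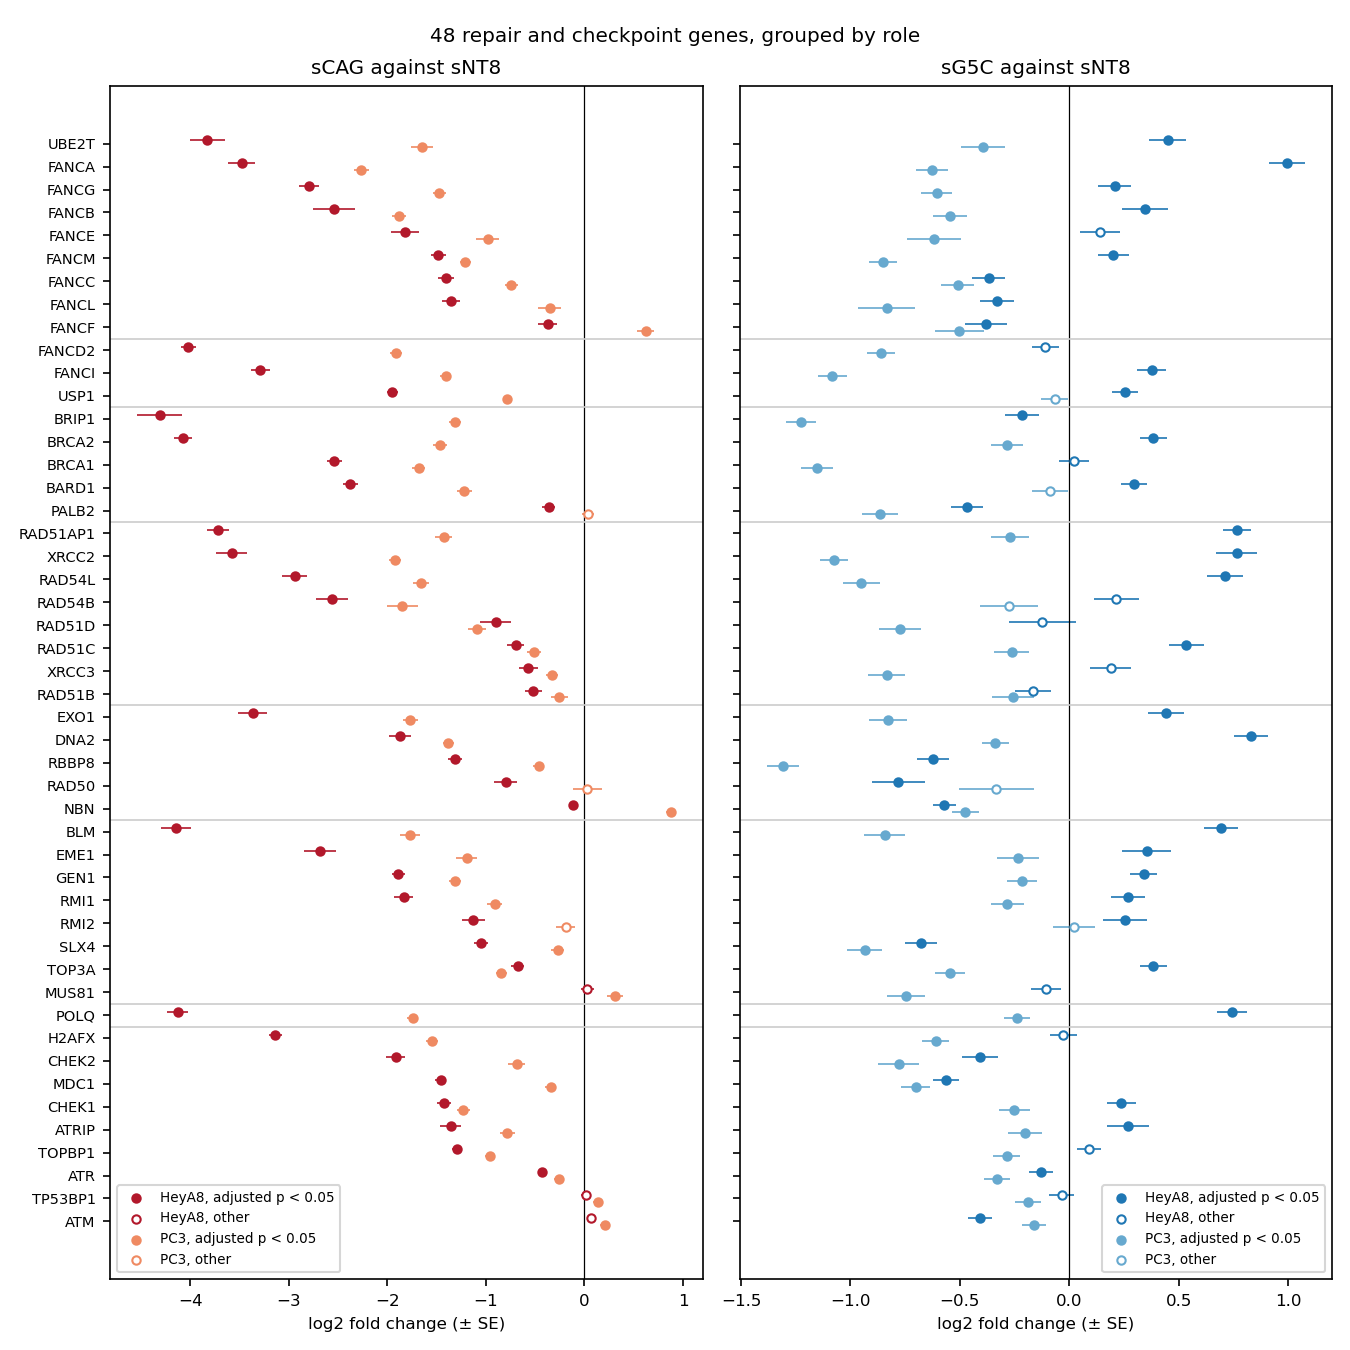
Log2 fold change against sNT8 (horizontal axes, with different ranges in the panels; bars are SE) of all 48 genes, blocked by role from the Fanconi core at the top to the checkpoint at the bottom; filled points passed the adjusted threshold of 0.05. With sCAG the points of HeyA8 reach -4.31 and those of PC3 -2.26, and with sG5C most HeyA8 points lie right of 0 and nearly all PC3 points left of it.

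With sCAG in PC3, 40 of the 48 genes were lower and 5 higher (TP53BP1, ATM, MUS81, FANCF and NBN); RAD50, PALB2 and RMI2 did not pass. Over the 23130 genes tested, 23.1% were lower and 27.4% higher. At least 2-fold lower were 24 of the 48, against 6.84% of all genes, and the median was -1.03, against -0.00 over all genes. The number higher depended on the scaling: with library totals FANCF and NBN still passed, ATM (0.03) and MUS81 (0.14) did not, and TP53BP1 was at -0.035. The 24 cell cycle markers were all lower (median -1.61, for example MKI67 at -2.06), and their part was not tested here either.

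FANCA fell most by log2 fold change, from 2105, 1833 and 2084 normalized reads with sNT8 to 376, 438 and 438 (-2.26 ± 0.08, 4.80-fold lower, adjusted p = 1.8e-17). FANCB read 1359, 1342 and 1357 against 373, 389.5 and 339 (-1.88 ± 0.07, adjusted p = 2.8e-16). Both core subunits fell, whereas FANCF moved the other way. FANCF read 379.6, 346 and 379 against 609, 575 and 518 (0.62 ± 0.09, adjusted p = 2.3e-06). FANCD2 read 2252, 2254 and 2330.0 against 586, 641 and 587 (-1.91 ± 0.06, adjusted p = 6.5e-18), and FANCI read 2477, 2516 and 2490.2 against 918, 993 and 913 (-1.41 ± 0.06, adjusted p = 3.6e-16). The substrate pair was at or below 993 normalized reads in every sCAG library.

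BRCA1 read 1616, 1760.0 and 1810.0 against 551, 544 and 518 (-1.68 ± 0.07, adjusted p = 3e-16). BRCA2 read 1802, 1971 and 1610.4 against 661, 676 and 608 (-1.46 ± 0.07, adjusted p = 3.1e-14). BARD1 (-1.22 ± 0.08) and BRIP1 (-1.31 ± 0.07) fell too, and PALB2 gave 0.04 ± 0.06 (adjusted p = 0.67). XRCC2 read 2501, 2480.1 and 2589 against 623, 699.7 and 669 (-1.93 ± 0.06, adjusted p = 5e-18). RAD54B, a low gene with shared exons, read 218, 191 and 271 against 63.7, 65.8 and 55.9 (-1.85 ± 0.16, adjusted p = 4.3e-10). RAD51AP1 read 843, 844 and 827 against 334, 279.5 and 322 (-1.43 ± 0.09, adjusted p = 7.2e-13). All 8 genes of that role were lower, from -1.93 to -0.26; the call of RAD51B was lost without sNT8 library B (adjusted p = 0.055) or sCAG library B (adjusted p = 0.053), and so was that of FANCL (adjusted p = 0.055 and 0.062).

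End resection split in PC3: EXO1 (-1.77 ± 0.07), DNA2 (-1.38 ± 0.06) and RBBP8 (-0.46 ± 0.06) fell, RAD50 did not pass, and NBN rose. NBN read 3406, 3620.4 and 3603 against 6701, 6166 and 6667 (0.88 ± 0.05, 1.84-fold higher, adjusted p = 1e-13), with every sCAG library above every sNT8 library. In the joint molecule role 6 of 8 were lower, led by BLM at -1.77 ± 0.10. MUS81 read 1062, 874 and 893 against 1071, 1202 and 1227 (0.31 ± 0.08, adjusted p = 0.0017). POLQ changed by -1.74 ± 0.06. In the checkpoint role 7 of 9 were lower: CHEK1 read 1653, 1829 and 1804 against 779, 757 and 718 (-1.23 ± 0.06, adjusted p = 4.5e-14). ATR read 3415, 3656 and 3585 against 3056, 2868 and 2976 (-0.26 ± 0.05, adjusted p = 8e-05). ATM, the other apex kinase, read 5927, 6196 and 6084 against 7227, 7007 and 6775 (0.21 ± 0.04, adjusted p = 0.00031), and TP53BP1 read 4051, 3709 and 4018 against 4402, 4274 and 4264 (0.14 ± 0.05, adjusted p = 0.019). The TP53BP1 call was also lost with edgeR (adjusted p = 0.069), without sNT8 library B (adjusted p = 0.13) and without sCAG library A (adjusted p = 0.062).

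The sCAG effects of the lines were set against each other by the interaction contrast over 18 libraries, where 22.1% of 27105 genes had a higher effect in PC3 and 15.0% a lower one. For 40 of the 48 genes the effect was higher in PC3, which for most of them is a smaller fall, 22 of them by at least 2-fold (7.60% of all genes); none was lower and 8 did not pass (DESeq2 gave 41 higher and 0 lower). With library totals 37 were higher and TOP3A was lower (-0.22, adjusted p = 0.037). The difference was 2.98 ± 0.16 for BRIP1 (adjusted p = 2.1e-19), 2.63 ± 0.12 for BRCA2, 2.42 ± 0.19 for BLM, 2.41 ± 0.12 for POLQ and 2.31 ± 0.14 for RAD51AP1. At the other end of those past the threshold stood ATR (0.19 ± 0.07, adjusted p = 0.025), MUS81 (0.29 ± 0.11), FANCM, the translocase that anchors the core (0.29 ± 0.09), TOPBP1 (0.35 ± 0.07) and PALB2 (0.41 ± 0.10). The ATR call was lost without HeyA8 sNT8 library A or B, any 1 HeyA8 sCAG library, PC3 sNT8 library A or PC3 sCAG library A (0.15 to 0.18). The MUS81 call was lost without library B of HeyA8 sNT8 or sCAG, library B or C of PC3 sNT8, or library B or C of PC3 sCAG (0.19 to 0.28). FANCM lost its call without HeyA8 sCAG library A or C or PC3 sCAG library B, FANCB (0.63) without HeyA8 sCAG library A or C, and RAD54B (0.71) without HeyA8 sCAG library C.

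Although the sizes differed, the changes in the lines were correlated. Ranks were not compared, and the gene with the lowest log2 fold change was BRIP1 in HeyA8 and FANCA in PC3. The lines share no library, and across the 48 genes the log2 fold changes with sCAG had Pearson's r = 0.86, against 0.47 across the 19848 genes tested in both lines; genes are not independent replicates, and each value shares its line's libraries. Of the 45 genes lower in HeyA8, 40 (88.9%) were lower in PC3, and of the 6167 lower genes among all tested in both lines 45.4% were. FANCF and NBN, 2 of the 45 (4.4%), were lower in HeyA8 and higher in PC3, against 19.0% of the 6167 genes. The NBN call in HeyA8 was lost without sCAG library A or C.

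**Figure D3:**
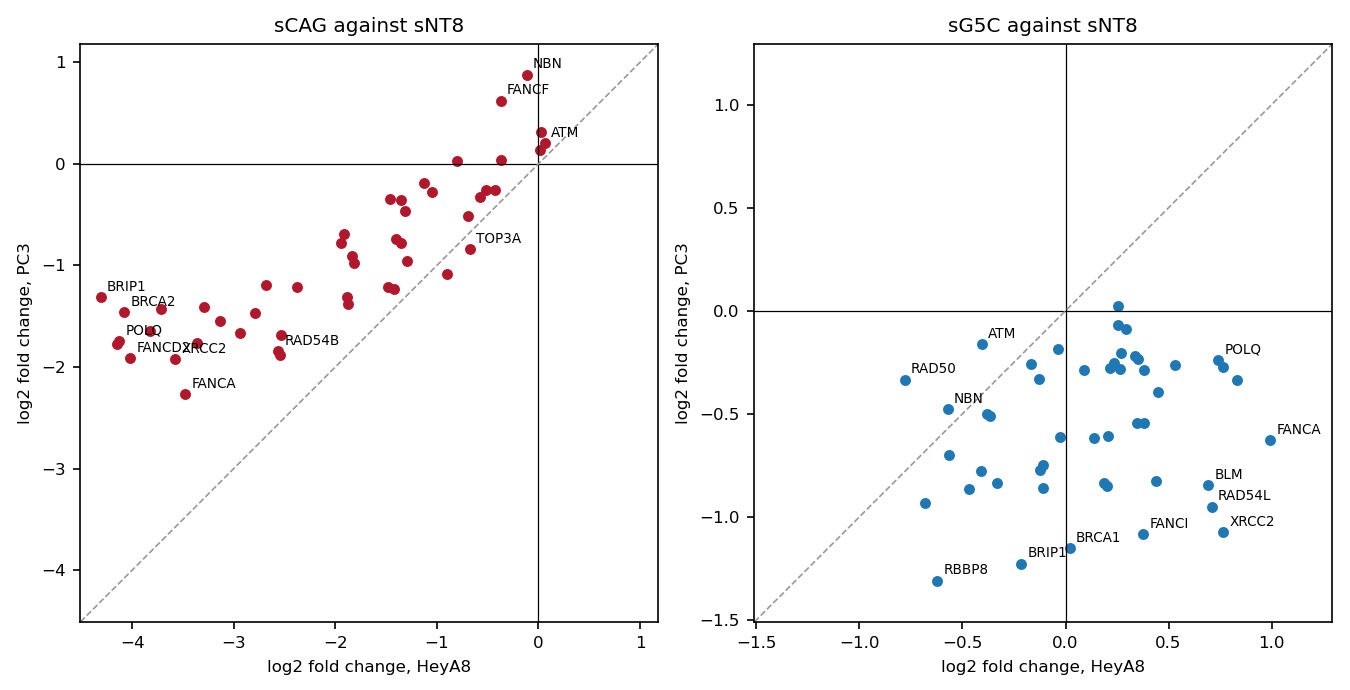
Log2 fold change against sNT8 in HeyA8 (horizontal) and PC3 (vertical) for the 48 genes, with sCAG at left and sG5C at right; the dashed line marks equal change. With sCAG most points lie above the dashed line (40 genes with a higher effect in PC3), and with sG5C the points of FANCA, XRCC2 and RAD54L lie at the lower right, higher in HeyA8 and lower in PC3.

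With sG5C in HeyA8 the set moved in both directions and by less. Of the 48 genes 24 were higher, 13 lower and 11 did not pass, against 24.6% of 22354 genes higher and 27.9% lower. No gene reached a 2-fold change in either direction, with FANCA just short of it at 0.99; 5.72% of all genes were at least 2-fold higher and 6.74% lower. FANCA passed 2-fold with library totals (1.13), with edgeR (1.01) and without sNT8 library B (1.11) or sG5C library A (1.00). Log2 fold changes ran from -0.78 to 0.99 with a median of 0.20, against 0.01 over all genes. The 24 cell cycle markers were mixed (9 higher, 7 lower, median 0.05): CDC6, a replication licensing factor, was at 1.39 and FOXM1, a G2 transcription factor, at -1.13.

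FANCA rose most by log2 fold change, from 529, 686 and 558 normalized reads to 1156, 1187 and 1169 (0.99 ± 0.08, 1.99-fold, adjusted p = 2.7e-11). Other core genes rose less (UBE2T 0.45 ± 0.08, FANCB 0.35 ± 0.11, FANCG 0.21 ± 0.08, FANCM 0.20 ± 0.07), and FANCC, FANCF and FANCL fell by 0.33 to 0.38. FANCD2 read 2611, 2663 and 2414 against 2500.2, 2390.0 and 2238 with sG5C, with overlapping groups (-0.11 ± 0.06, adjusted p = 0.13). FANCI read 1442, 1665 and 1409 against 1997, 1945 and 1903 (0.38 ± 0.07, adjusted p = 1.8e-05). BRCA1 read 1608, 1592 and 1417 against 1628, 1619 and 1435 (0.02 ± 0.07, adjusted p = 0.83), which is no difference beyond the spread. BRCA2 read 2629, 2557 and 2308 against 3471, 3273 and 3031 (0.38 ± 0.06, adjusted p = 6e-06), PALB2 fell by 0.47 and BRIP1 by 0.22 on the log2 scale.

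RAD51AP1 read 1210.0, 1266 and 1120.1 against 1970.3, 2171 and 1972 (0.77 ± 0.07, adjusted p = 3.6e-11). XRCC2 read 362, 447 and 392 against 657, 753 and 629 (0.76 ± 0.09, adjusted p = 4.2e-08). With RAD54L (0.71 ± 0.08) and RAD51C (0.53 ± 0.08) they were the 4 of 8 genes in this role that rose, and none fell. POLQ read 1187, 1306 and 1155 against 2118, 2088 and 1897 (0.74 ± 0.07, adjusted p = 8.1e-11). In the joint molecule role 6 of 8 rose, BLM by 0.69 ± 0.08, and the scaffold SLX4 fell, from 1346, 1204 and 1177 to 814, 732 and 778 (-0.68 ± 0.07, adjusted p = 3.7e-09).

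In the end resection role the long-range factors DNA2 and EXO1 rose, and the first-step genes RBBP8, NBN and RAD50 fell. Whether the response divides by step was not tested. DNA2 read 536, 480.2 and 525 against 932, 899 and 910.1 (0.83 ± 0.08, adjusted p = 2e-10), and EXO1 changed by 0.44 ± 0.08. RBBP8 read 1202, 1239 and 1149 against 719.7, 831 and 783 (-0.62 ± 0.07, adjusted p = 1.8e-08). NBN read 6254, 6004 and 6148 against 4057, 4196 and 4128 (-0.57 ± 0.05, adjusted p = 1.4e-10), and RAD50, with its shared exons, read 264, 309 and 294 against 184, 172 and 148 (-0.78 ± 0.12, adjusted p = 2.6e-06). None of these 3 falls reached 2-fold. Of the checkpoint genes 4 fell and 2 rose. MDC1 read 3778, 3508 and 3217 against 2289, 2432 and 2373 (-0.56 ± 0.06, adjusted p = 4.2e-09). ATM read 11719.6, 11102 and 11899.6 against 9403, 8383 and 8424 (-0.41 ± 0.05, adjusted p = 2.6e-07), and CHEK2 changed by the same -0.41 ± 0.08. CHEK1 read 1460.1, 1443 and 1277 against 1589, 1696 and 1633 (0.24 ± 0.07, adjusted p = 0.0034). ATR read 7370.3, 7295 and 7126 against 7002, 6605 and 6329 (-0.13 ± 0.05, adjusted p = 0.043), a call lost with edgeR (adjusted p = 0.074), with library totals (adjusted p = 0.96) and without any 1 library other than sG5C library A (adjusted p = 0.065 to 0.23). BRIP1 (-0.22, adjusted p = 0.023) lost its call with library totals (-0.084, adjusted p = 0.38), with no filter (adjusted p = 0.051) and with DESeq2 (adjusted p = 0.053). RMI2 lost its call with no filter (adjusted p = 0.068) and with DESeq2 (adjusted p = 0.096), and ATRIP with DESeq2 (adjusted p = 0.064). Leaving out 1 library also cost the calls of BRIP1 (sNT8 B or sG5C C), FANCG (sNT8 B or C, or sG5C B), FANCM (sNT8 B or C, or sG5C A), RMI2 (sNT8 B or C, or sG5C B), EME1 (sNT8 B or C, or sG5C A or B) and ATRIP (sNT8 B, or sG5C A or B).

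With sG5C in PC3, 43 of the 48 genes were lower and none was higher; RAD50, RAD54B, BARD1, USP1 and RMI2 did not pass (limma; no gene of the set was higher at an unadjusted p under 0.05, and edgeR and DESeq2 also called 0 higher). Over 23731 genes tested, 29.3% were lower and 28.6% higher. At least 2-fold lower were 5 of 48, against 9.40% of all genes. The median was -0.53, against -0.01 over all genes. Of the 24 cell cycle markers 16 were lower and 5 higher (median -0.70; FOXM1 at -2.31 and the transcription factor E2F1 at -2.18), and their part was not tested.

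RBBP8 had the lowest log2 fold change, from 2052, 2119 and 2004 normalized reads to 823, 909.9 and 762 (-1.31 ± 0.07, 2.48-fold lower, adjusted p = 4.9e-15). BRIP1 read 2156, 2280.3 and 2313 against 967, 1001 and 913 (-1.23 ± 0.07, adjusted p = 3.9e-15), and BRCA1 read 1603, 1731 and 1788 against 787, 793 and 721 (-1.15 ± 0.07, adjusted p = 8.7e-14). The proteins of BRIP1 and RBBP8 both bind BRCA1, while BARD1, the partner of BRCA1, did not pass. FANCI read 2457, 2476 and 2460.1 against 1168, 1088 and 1234 (-1.08 ± 0.07, adjusted p = 3.8e-14), and XRCC2 read 2481, 2439.8 and 2558 against 1203, 1184 and 1159.6 (-1.08 ± 0.06, adjusted p = 1.9e-14). FANCD2 read 2234, 2217 and 2302 against 1194, 1278 and 1246 (-0.86 ± 0.06, adjusted p = 3.2e-12). RAD54L, a strand-exchange cofactor, was at -0.95 ± 0.09, between XRCC2 and FANCD2. BRCA2 read 1788, 1939 and 1591 against 1472, 1480.3 and 1397 (-0.29 ± 0.07, adjusted p = 0.0012). RAD51AP1 read 836, 830.1 and 817 against 716, 749 and 601 (-0.27 ± 0.09, adjusted p = 0.0082), a call lost without sG5C library C (adjusted p = 0.077).

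All 9 core genes fell, by 0.39 (UBE2T) to 0.85 (FANCM), and all 9 checkpoint genes fell. CHEK1 read 1639.7, 1799.7 and 1782 against 1470.0, 1561 and 1358 (-0.25 ± 0.07, adjusted p = 0.0029). ATR read 3387, 3596 and 3541 against 2761, 2834 and 2771 (-0.33 ± 0.06, adjusted p = 2e-05). ATM read 5878, 6096 and 6010.5 against 5264, 5505 and 5317 (-0.16 ± 0.06, adjusted p = 0.014), a call lost without sNT8 library B (adjusted p = 0.066) or C (adjusted p = 0.053). These 3 kinases changed by at most 1.26-fold, while CHEK2 changed by -0.78 ± 0.09 and MDC1 by -0.70 ± 0.07. After ATM, the smallest falls that passed were those of TP53BP1 (4018, 3649 and 3969 against 3423, 3368 and 3414; -0.19 ± 0.06, adjusted p = 0.0079), ATRIP (888, 830.1 and 840.3 against 754, 701 and 767; -0.20 ± 0.08, adjusted p = 0.029), GEN1, a Holliday junction nuclease (1775, 1796 and 2025 against 1529.9, 1636 and 1640.1; -0.22 ± 0.07, adjusted p = 0.0079) and EME1 (489, 427 and 441 against 400.5, 372 and 379; -0.24 ± 0.10, adjusted p = 0.04). The calls of EME1 and ATRIP were lost with no filter, with DESeq2, and without sNT8 library A or C or sG5C library B, and that of EME1 also without sG5C library C. GEN1 lost its call without sNT8 library C (adjusted p = 0.099), and RAD51B (-0.26 ± 0.10, adjusted p = 0.022) without sNT8 library B or C or sG5C library C.

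The difference between lines in the sG5C effect was again tested by the interaction contrast, in which 14.6% of all genes had a lower effect in PC3 and 18.3% a higher one. For 38 of the 48 genes the effect was lower in PC3, for ATM it was higher (0.26 ± 0.07, adjusted p = 0.0024) and 9 did not pass. At least 2-fold lower were 10, against 4.24% of all genes. XRCC2 differed by -1.82 ± 0.11 (adjusted p = 4.7e-18), RAD54L by -1.64 ± 0.11, FANCA by -1.60 ± 0.11, BLM by -1.52 ± 0.13 and FANCI by -1.44 ± 0.09. The smallest differences that passed were those of ATR (-0.18 ± 0.07, adjusted p = 0.031), USP1 (-0.31 ± 0.07), CHEK2 (-0.35 ± 0.12) and TOPBP1 (-0.36 ± 0.07). The ATM difference was lost with library totals (0.05, adjusted p = 0.61), and the ATR call with no filter (adjusted p = 0.055) and without HeyA8 sNT8 library C, HeyA8 sG5C library A, PC3 sNT8 library B or C, or PC3 sG5C library A. CHEK2 lost its call without HeyA8 sG5C library A or PC3 sG5C library C. RAD54B (-0.49) lost its call without HeyA8 sNT8 library C, HeyA8 sG5C library A or C, PC3 sNT8 library C or PC3 sG5C library B. Of the 24 genes that were higher in HeyA8, 21 (87.5%) were lower in PC3, against 10.1% of the 5181 higher genes among all tested in both lines. Of the 13 that were lower in HeyA8, 12 were lower in PC3 too, RAD50 being the exception. Among all genes tested in both lines, 61.9% of the 5824 lower in HeyA8 were lower in PC3. Of the 11 that did not pass in HeyA8, 10 were lower in PC3. These shares of the set are all near its 43 of 48 lower in PC3, whatever the call in HeyA8. Across the 48 genes the lines' log2 fold changes had Pearson's r = 0.20, against 0.54 across 20357 genes.

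The short RNAs were given at the same dose and time, and sCAG was compared with sG5C in each line by edgeR's quasi-likelihood test over the 9 libraries of the line. Their sequences were not used here, so responses alone were compared, and the 2 comparisons (1 per line) were each adjusted over all genes. In HeyA8, where 33.4% of 23238 genes were lower with sCAG and 31.8% higher, 41 of the 48 genes were lower, ATM (0.46 ± 0.05) and NBN (0.45 ± 0.04) were higher, and 5 did not pass. At least 2-fold lower were 34 of 48 (14.4% of all genes). POLQ differed by -4.89 ± 0.10 (adjusted p = 9.2e-30), BLM by -4.87 ± 0.12, FANCA by -4.50 ± 0.12, RAD51AP1 by -4.49 ± 0.09 and BRCA2 by -4.47 ± 0.08. The smallest falls were those of ATR (-0.31 ± 0.05), RAD51B (-0.36 ± 0.08) and SLX4 (-0.37 ± 0.08). For FANCF (0.01 ± 0.10) and TP53BP1 (0.04 ± 0.05) the short RNAs did not differ past the threshold, but with library totals both were lower with sCAG (FANCF by -0.24, adjusted p = 0.027; TP53BP1 by -0.21, adjusted p = 0.00025).

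In PC3, where 31.1% of 24618 genes were lower with sCAG and 31.6% higher, 31 of the 48 were lower, 11 higher and 6 did not pass. At least 2-fold lower were 11 (13.5% of all genes) and higher 3 (11.7%). FANCA differed by -1.64 ± 0.08 (adjusted p = 2.7e-18), RAD54B by -1.57 ± 0.16, POLQ by -1.50 ± 0.06, FANCB by -1.33 ± 0.08 and UBE2T by -1.25 ± 0.12. In the other direction NBN was higher with sCAG by 1.36 ± 0.05 (adjusted p = 3.8e-20), FANCF by 1.13 ± 0.10, MUS81 by 1.06 ± 0.08, PALB2 by 0.90 ± 0.07 and RBBP8 by 0.85 ± 0.07. These 5 genes, from the core, resection, nuclease and BRCA1 roles, were lower with sG5C than with sCAG in PC3. BRIP1 was lower than sNT8 with both and did not differ between them past the threshold (-0.08 ± 0.07, adjusted p = 0.32), although with library totals it was lower with sCAG (-0.20, adjusted p = 0.0095).

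The same test gave counts for other repair lists. In HeyA8 with sCAG, 23 of 33 other Fanconi and recombination genes were lower and 4 higher (median -0.51), among them C17orf53, a recombination factor, at -3.65, and MRE11, the nuclease partner of RAD50 and NBN, at -1.33. Of 31 other checkpoint genes 20 were lower and 3 higher (median -0.50), with CDC25C, the phosphatase that drives mitotic entry, at -6.61. Non-homologous end joining had 9 of 12 lower and 3 higher (PRKDC, the DNA-PK kinase, -0.47), mismatch repair 5 of 7 lower, and base excision repair 12 of 18 lower and 5 higher (the glycosylase NEIL3, -3.99). Nucleotide excision repair had 6 of 17 lower and 6 higher, with a median of 0.02. In PC3 with sCAG, 19 of 34 other Fanconi and recombination genes were lower and 8 higher. Of 31 other checkpoint genes 16 were lower and 5 higher, and of 18 base excision repair genes 8 were lower and 2 higher. End joining had 4 of 13 lower and 4 higher, mismatch repair 3 of 7 lower and 1 higher, and nucleotide excision repair 5 of 17 higher and no gene lower. The share of lower genes over all tested was 30% in HeyA8 and 23.1% in PC3, and that of higher genes 29.3% and 27.4%.

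With sG5C, 11 of 33 other Fanconi and recombination genes were lower and 13 higher in HeyA8, and 17 of 34 were lower and 7 higher in PC3. Over all genes tested with sG5C, 27.9% were lower and 24.6% higher in HeyA8, and 29.3% were lower and 28.6% higher in PC3. In the base excision list 10 of 18 genes were lower and 3 higher in HeyA8 (median -0.19), and 13 were lower and 3 higher in PC3 (median -0.43). Its gene APEX1, the abasic site endonuclease, was at -2.02 in HeyA8 and -2.62 in PC3. The 48 genes had medians of 0.20 in HeyA8 and -0.53 in PC3, and their lowest values were -0.78 and -1.31. Of 14 p53 target genes, 14 were higher with sCAG in HeyA8 (median 0.80, TP53INP1 at 3.75), 7 were higher and 5 lower with sCAG in PC3, a line known to lack p53, and 5 were higher and 5 lower with sG5C in HeyA8. TP53INP1 was at 3.34 with sG5C in PC3, where 7 of the 14 were higher and 4 lower. With sCAG, 29.3% of all genes tested were higher in HeyA8, and 27.4% were higher and 23.1% lower in PC3.

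**Figure D4:**
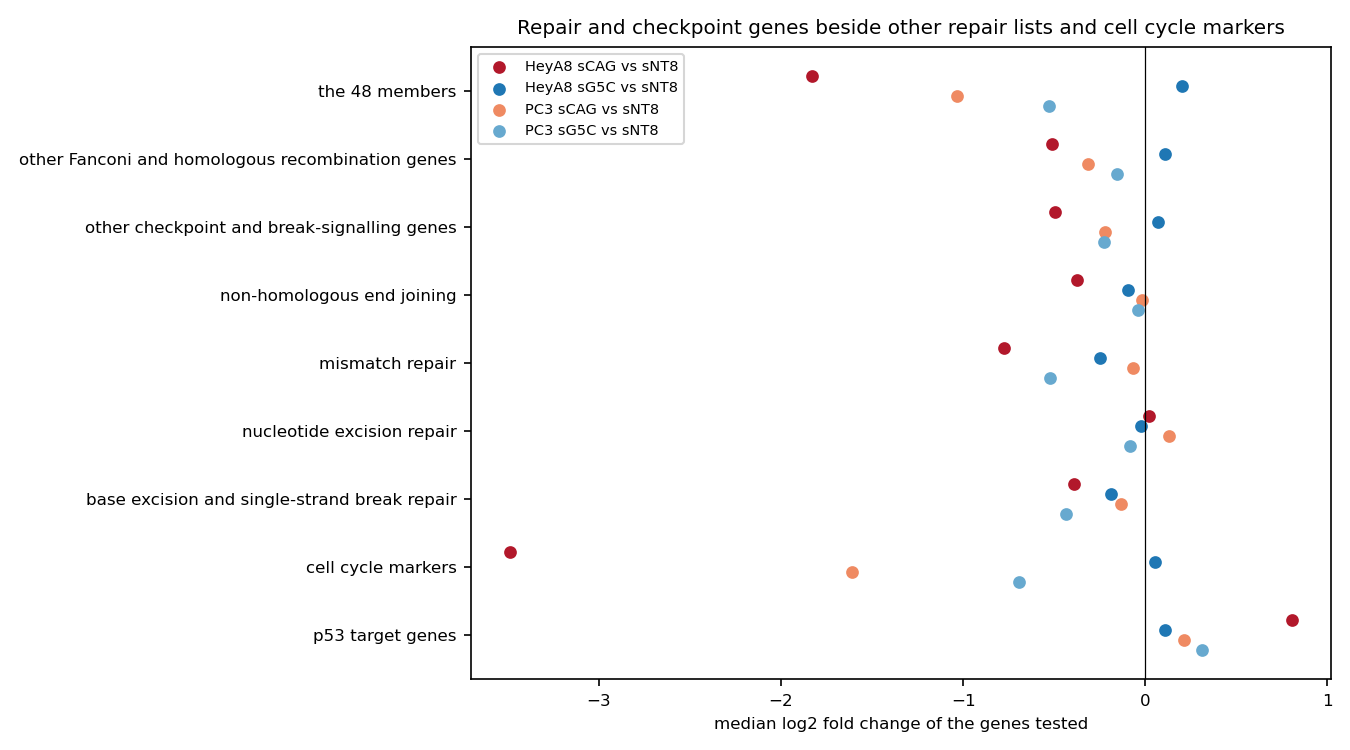
Median log2 fold change against sNT8 (horizontal axis) of the 48 genes and of 8 other lists (vertical axis) in the 4 comparisons, each median over the genes tested. The cell cycle markers have the lowest medians with sCAG (-3.49 in HeyA8 and -1.61 in PC3), the 48 genes come next (-1.83 and -1.03), and nucleotide excision repair lies between -0.08 and 0.13.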

How the data were processed

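Total RNA libraries, 18 in 6 groups of 3, were read from 4 deposited tables, 1 per line and active short RNA, each with the sNT8 libraries of its line. Per the submitters' processing notes, the build was hg38 and TopHat, Bowtie2, HTSeq and DESeq2 were used; no source used here gives versions or the strand setting. The deposited values are a signal, reads per gene divided by a size factor. Dividing each column by its smallest positive value gave whole reads for 100% of values (tolerance 1e-06), and the sNT8 reads were identical in both tables of a line for all 58395 genes. Comparisons with sNT8 were fitted per table with limma 3.58.1 (trend, robust) on log2(value + 1) after filterByExpr (count minimum 10), so fold changes of low genes are understated. The design had foreseen a count test if counts were present; since the tables hold scaled reads, limma stayed the main test, with edgeR and DESeq2 1.42.0 on recovered reads as alternatives. Direct comparisons (9 libraries) and contrasts between lines (18 libraries) used edgeR 4.0.16 (quasi-likelihood, TMM) in R 4.3.3. P-values were adjusted by Benjamini-Hochberg across every gene tested and called under 0.05; a second rule added a 2-fold change. Scripts were tested on simulated data. RPKM used union exon lengths of GENCODE 29. Of the 48 genes, 45 lie at the same place there as in the deposited tables.

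The genes, role groups, other lists and motifs were chosen with earlier results of these data known. The text gives values per library for the 5 lowest and 5 highest log2 fold changes past the threshold in each comparison with sNT8 and for BRCA1, BRCA2, FANCD2, FANCI, RAD51AP1, CHEK1, ATM and ATR; in the other comparisons, the 5 highest and 5 lowest past the threshold; in other lists, genes among the 4 with the smallest p. Other genes are named within their roles. Alternatives were TMM or library totals as scaling, pseudocounts of 0.1 and 5, no filter or a minimum of 50, edgeR, DESeq2, a replicate block and leaving out each library.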

Additional observations from a re-analysis of the deposited data

Results flagged for a closer look

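The interaction contrast (edgeR's quasi-likelihood test, 18 libraries) found an effect that differed between the lines for 40 of the 48 genes with sCAG and for 39 with sG5C. With sCAG the log2 effect in PC3 minus that in HeyA8 was 2.98 for BRIP1, 2.63 for BRCA2, 2.42 for BLM, 2.41 for POLQ and 2.31 for RAD51AP1, and 0.41 for PALB2, 0.35 for TOPBP1, 0.29 for FANCM, 0.29 for MUS81 and 0.19 for ATR. With sG5C it was -1.82 for XRCC2, -1.64 for RAD54L, -1.60 for FANCA, -1.52 for BLM and -1.44 for FANCI, and -0.36 for TOPBP1, -0.35 for CHEK2, -0.31 for USP1, -0.18 for ATR and 0.26 for ATM.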

How the results depend on the processing

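Across the alternatives with all libraries, the counts of genes lower and higher stayed within 1.5 times of those reported except with library totals as the scaling, which moved the median of all genes by more than 0.1 in 7 comparisons, to medians between -0.30 and 0.35 on the log2 scale. With library totals, 2 genes were higher with sCAG in PC3 in place of 5, 1 gene had a lower sCAG effect in PC3 than in HeyA8 in place of 0, none had a higher sG5C effect in PC3 in place of 1, and 11 were lower in PC3 sNT8 in place of 17. With the same scaling, ATM with sCAG in HeyA8 was at -0.0558, TP53BP1 with sCAG in PC3 at -0.035, and with sG5C in HeyA8 FANCD2 was at 0.023 and ATR at 0.00322. Leaving out 1 library moved BRCA1 with sG5C in HeyA8 between -0.038 and 0.079, below 0 without sNT8 library C or sG5C library A or B. Leaving out 1 library gave 1 to 2 genes with a higher sG5C effect in PC3: RAD50 joined ATM without HeyA8 sG5C library A or PC3 sG5C library C. For the named genes, 1500 of 1565 values kept their direction and side of the threshold, 57 lost the call, 1 gained it and 7 changed sign. The cause of these changes was not tested.

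The libraries share only their letters: same-lettered libraries had correlations of deviations from the group means of -0.04 to 0.13, so the letters were not taken as pairing. With the letter as a replicate block, the genes lower with sG5C in HeyA8 were 12 in place of 13 (ATR was lost), those lower with sCAG than with sG5C in PC3 32 in place of 31, and those with a lower sG5C effect in PC3 39 in place of 38; it changed no other count. The fewest normalized reads in a library were 20.2 for BRIP1, 20.9 for UBE2T and 24.2 for BLM, each with sCAG in HeyA8, and depth limits the precision of such values.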
